A study of Mus musculus with 2 samples.

Results

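The genes described here encode the glutathione and thioredoxin systems and the antioxidant enzymes of the cell. They are 40 genes chosen by symbol, from the transcription factors that control the programme to the enzymes that remove peroxides, and all 40 were found among the 51912 rows with an Ensembl identifier. RNA sequencing measured them in the mouse mammary carcinoma line 4T1, with 1 library per group. The control library came from 4T1 cells grown without macrophages. The co-culture library came from 4T1 cells that shared a transwell for 3 days with M2 macrophages, alternatively activated phagocytes held above a permeable membrane. The title of the co-culture library reads 4T2, while its treatment label and its data column read 4T1, and the treatment label was followed. Limits of the model are the origin of the macrophages and whether control wells held an empty insert (both not given in the sources used here). At issue is how the redox genes of 4T1 cells differ when M2 macrophages are present.

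Glutathione is a small thiol made from glutamate, cysteine and glycine. Glutathione peroxidases use it to reduce peroxides, glutathione transferases attach it to reactive compounds, and glutathione reductase restores it with NADPH. Thioredoxins and peroxiredoxins form a parallel chain of thiol enzymes, also fed by NADPH through thioredoxin reductases. The transcription factor NRF2 (Nfe2l2), held in check by KEAP1, induces many of these genes under oxidative stress through a DNA motif called the antioxidant response element. Its relative NRF1 (Nfe2l1) is made as a membrane protein of the endoplasmic reticulum and is best known for inducing proteasome genes.

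Values are TPM, a length-normalised transcript abundance with the same total in each library. Levels can be compared between genes within a library, while a comparison between libraries also depends on the scaling. The log2 ratio is log2((co-culture TPM + 1)/(control TPM + 1)). A gene counts as detected when its mean TPM is at least 1, and as 2-fold different when the log2 ratio reaches 1 or -1. With 1 library per group there is no replicate error and no test, so each difference describes this pair of libraries. TPM keeps no sequencing depth, so the counting error behind each value is unknown. In bulk RNA, fewer cells of a type and less RNA per cell cannot be told apart.

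Most of the antioxidant programme differed little between the libraries. Of the 40 genes 37 were detected, and 31 of these lay within 1.5-fold. The only gene at least 2-fold lower in co-culture was Nfe2l1, that is 1 of 37, while 2.14% of the 11258 detected genes were as low. None was at least 2-fold higher, against 4.95% of detected genes, although Glrx came close at 0.98. At the lower limit of 1.5-fold, 3 genes (Glrx, Gpx8 and Txnip) were higher and 3 (Nfe2l1, Txnrd2 and Gsto1) were lower. Among all detected genes 18.6% were 1.5-fold higher and 6.37% were 1.5-fold lower.

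The set sat slightly below the bulk of the transcriptome. Its median log2 ratio was -0.02, and the median of all detected genes was 0.17. Higher values in co-culture were seen for 18 of the 37 genes, or 48.6%, against 64.5% of all detected genes. Relative to the median of all detected genes 12 of the 37 lay above and 25 below. The direction of small differences depended on scaling. With an unweighted TMM factor, which lowers every co-culture log2 value by 0.19, 8 genes with small positive ratios (Nfe2l2, Gsr, Gstm2, Gstp1, Txnrd1, Prdx2, Prdx5 and Sod2) turned negative. The other detected genes kept their direction in each of 5 settings for pseudocount and scaling, 10 as higher and 19 as lower. Over all detected genes the count at least 2-fold different was 557 higher and 241 lower as deposited, 406 and 293 with median ratio scaling, and 345 and 354 with the TMM factor.

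The level of a gene moved with its ratio across the whole table, and this bears on the abundant members. The 4450 genes with a mean from 1 to below 10 TPM had a median log2 ratio of 0.26, and the 254 genes at 500 TPM or more had a median of -0.18. The members followed the same order, with medians of 0.17 for the 2 members in the lowest class. In the class from 10 to below 100 TPM, 20 members had a median of 0.08 and all genes 0.13. From 100 to below 500 TPM, 10 members had a median of -0.03 and all genes 0.02. The 5 members at 500 TPM or more had a median of -0.18, as had all genes of that class. The part of this level trend in the members' lower median was not tested.

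**Figure D1:**
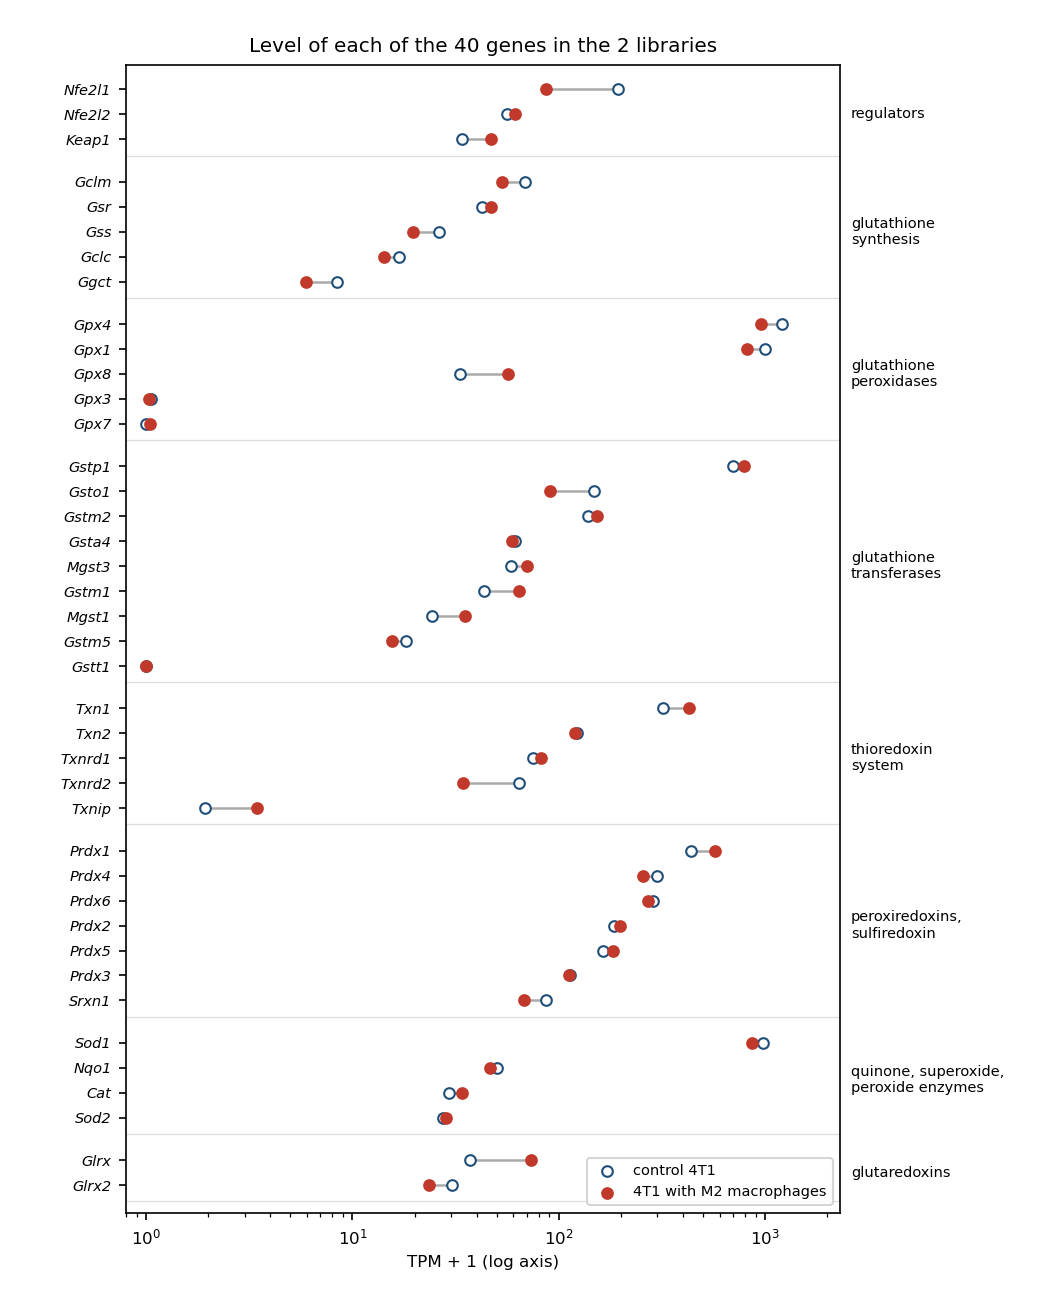
TPM + 1 of each of the 40 genes (log axis) in the control library (open circles) and the co-culture library (filled circles), grouped by role. Most pairs of circles nearly touch; the widest gaps are those of Nfe2l1, Txnrd2, Gsto1, Glrx, Gpx8 and Txnip, and Gpx3, Gpx7 and Gstt1 sit at the left edge.

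**Figure D2:**
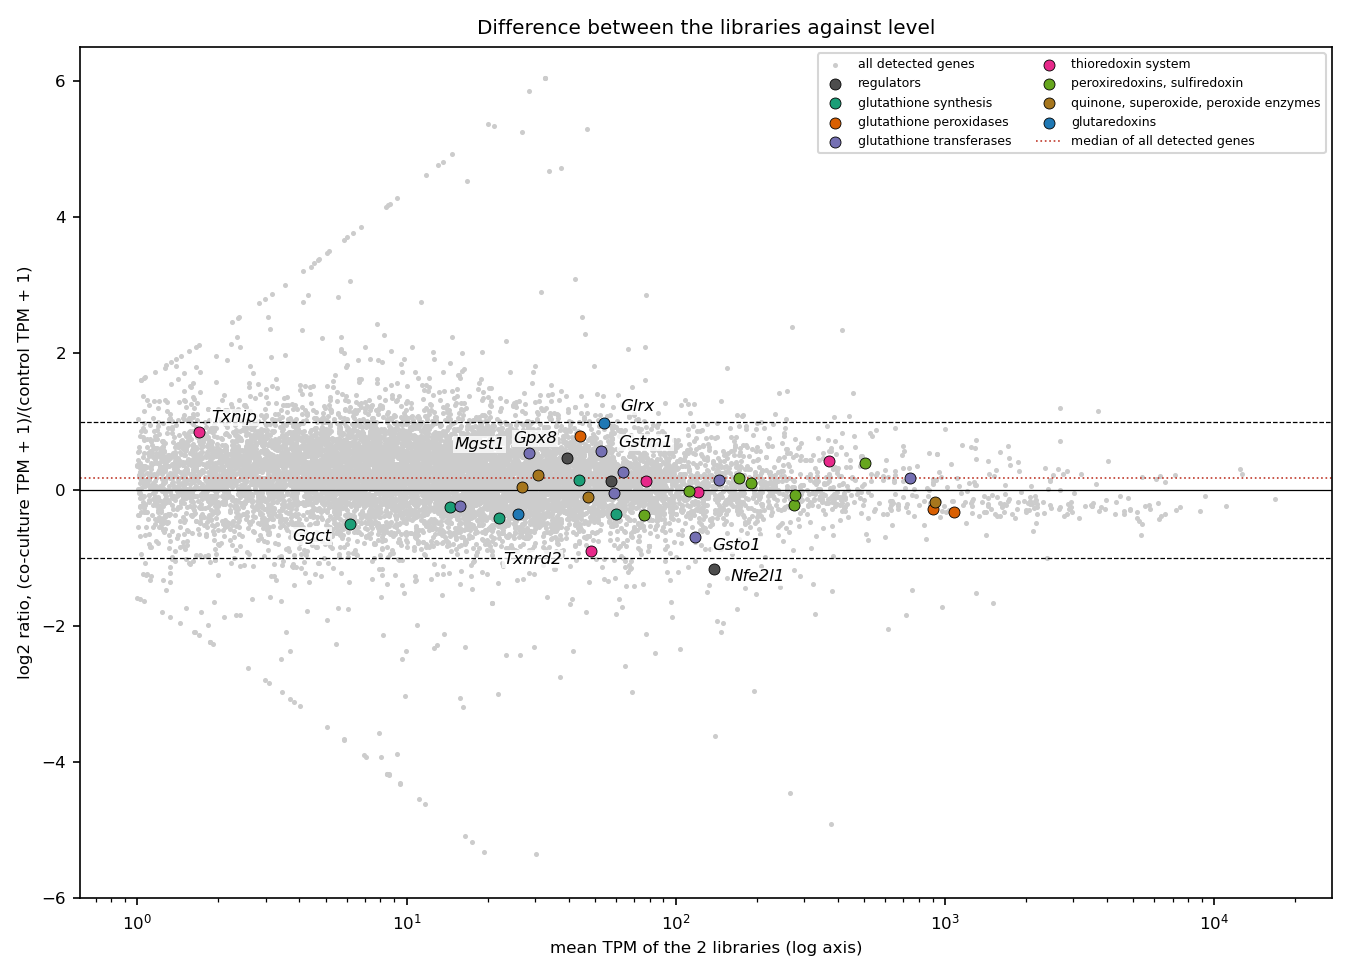
Log2 ratio against mean TPM (log axis) for all 11258 detected genes (grey) and the 37 detected genes of the set, coloured by role; dashed lines mark 2-fold and the dotted line the median of all detected genes, 0.17. Nfe2l1 is the only coloured point past a dashed line, and the grey cloud bends below 0 at its abundant end.

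Among the regulators, the largest difference belonged to Nfe2l1. It (ENSMUSG00000038615, chromosome 11 of GRCm38 from 96817414 to 96829968, minus strand) had 192 TPM in control cells and 85.3 TPM in co-cultured cells, a log2 ratio of -1.16. Its ratio stayed between -1.35 and -1.13 in the other settings for pseudocount and scaling. It was the most abundant regulator in both libraries, but its level relative to Nfe2l2 went from 3.49 to 1.42. Nfe2l2 (chromosome 2 from 75675513 to 75704641), the gene of NRF2 itself, had 55.1 TPM in control cells and 60.3 TPM in co-cultured cells. Keap1, the adaptor that sends NRF2 for degradation, had 33.0 TPM and 46.0 TPM, a log2 ratio of 0.47. The gene of the repressor was modestly higher and that of its target close to level, with a log2 ratio of 0.13 (-0.06 with the TMM factor). Keap1 shares 510 exonic bases with the antisense gene Gm16754 (1.34 TPM and 1.96 TPM). Without strandedness (not given in the sources used here), reads from such shared bases cannot be assigned, for Keap1 or for other members described below as sharing exonic bases with a gene.

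The genes of glutathione synthesis and recycling were mostly a little lower. Of 5 members 4 had lower values, none 2-fold, with a median log2 ratio of -0.36, and all 5 lay below the median of all detected genes. Gclm, the modifier subunit of the enzyme that joins glutamate to cysteine, had 67.5 TPM in control cells and 52.3 TPM in co-cultured cells. Gclc, its catalytic subunit, had 15.9 TPM and 13.2 TPM. The ratio of the subunits' transcripts, Gclm over Gclc, was 4.25 in the control and 3.97 in co-culture. Gclm shares 244 exonic bases with the pseudogene Gm6061 on its own strand (2 TPM and 0.25 TPM). Gss, which adds glycine in the second step, had 25.3 TPM and 18.8 TPM, a log2 ratio of -0.42. Gss shares 395 exonic bases on the opposite strand with Acss2, which was higher in co-culture (10.5 TPM and 16.4 TPM). Ggct, which cyclises gamma-glutamyl residues released from glutathione, had 7.43 TPM and 4.95 TPM. Gsr, glutathione reductase, was the exception, with 41.6 TPM in control cells and 46.0 TPM in co-cultured cells.

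The glutathione peroxidases held the most abundant transcript of the set in both libraries, that of Gpx4. Gpx4, the peroxidase that reduces lipid hydroperoxides in membranes, had 1200.1 TPM in control cells and 954 TPM in co-cultured cells. Gpx1, the general cytosolic peroxidase, had 993 TPM and 816 TPM, and ranked 2 among the members in the control and 3, after Sod1, in co-culture. Together they made up nearly all of the family's transcripts, and both ratios were small and negative, -0.33 for Gpx4 and -0.28 for Gpx1. Gpx8, a membrane-bound peroxidase of the endoplasmic reticulum (ENSMUSG00000021760, chromosome 13 from 113042753 to 113046410), differed the other way. It had 32.1 TPM in control cells and 56.0 TPM in co-cultured cells, a log2 ratio of 0.78, and its share of the family's TPM went from 1.44% to 3.06%. Gpx3, the secreted plasma form, had 0.06 TPM and 0.03 TPM, and Gpx7, another peroxidase of the endoplasmic reticulum, was listed at 0 in control cells and at 0.04 TPM in co-cultured cells.

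The abundant peroxidases and Gpx8 differ in their catalytic residue. Gpx1, Gpx3, Gpx4, Txnrd1 and Txnrd2 are the 5 members for which the GENCODE M21 annotation marks a selenocysteine, encoded by an in-frame TGA that would otherwise end translation. The coding sequence around that codon is shown because it separates the selenium-dependent peroxidases from Gpx7 and Gpx8, with the codon in capitals. For Gpx7 and Gpx8 the capitals mark the codon that a protein alignment places opposite the selenocysteine of Gpx4, and it is a cysteine codon in both. Sequences are read 5′ to 3′ from GENCODE M21 transcripts, and those of Txnrd1 and Txnrd2 stop at the last codon before the true stop.
Gpx1: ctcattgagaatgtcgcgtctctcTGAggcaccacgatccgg
Gpx4: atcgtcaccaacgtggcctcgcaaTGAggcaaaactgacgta
Gpx7: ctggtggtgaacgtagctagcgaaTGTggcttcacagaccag
Gpx8: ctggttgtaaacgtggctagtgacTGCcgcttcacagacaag
Txnrd1: ggagacatcctccagtctggctgcTGAggt
Txnrd2: ctggagcctactgtgactggttgcTGAggc

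The TGA is codon 47 of 201 in Gpx1 and codon 73 of 197 in Gpx4, but the penultimate codon in the reductases, 498 of 499 in Txnrd1 and 526 of 527 in Txnrd2. The 4 detected members with this codon had log2 ratios below the median of all detected genes. The ratio was -0.28 for Gpx1, -0.33 for Gpx4, 0.13 for Txnrd1 and -0.90 for Txnrd2. With the TMM factor that of Txnrd1 was -0.05, so that all 4 were negative.

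The glutathione transferases were split between directions. Of 9 members 8 were detected, 5 with higher and 3 with lower values, none 2-fold, and the median log2 ratio was 0.16 (-0.03 with the TMM factor). Gstp1, the pi class transferase, dominated the group with 697 TPM in control cells and 787 TPM in co-cultured cells, which was 59.0% and 62.0% of its summed TPM. Gsto1, an omega class enzyme with thiol transferase activity (ENSMUSG00000025068, chromosome 19 from 47854970 to 47864790), had 146 TPM in control cells and 90.0 TPM in co-cultured cells, a log2 ratio of -0.70. It was the only transferase past 1.5-fold.

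The mu class genes lie together on chromosome 3 but differed among themselves. Gstm1 had 42.5 TPM in control cells and 63.2 TPM in co-cultured cells, a log2 ratio of 0.56. Gstm2 had 138 TPM and 152 TPM, and Gstm5 had 17.2 TPM and 14.5 TPM. Of the microsomal enzymes in the set, Mgst1 had 23.2 TPM in control cells and 34.0 TPM in co-cultured cells, and Mgst3 had 57.9 TPM and 69.3 TPM. Their relative Mgst2, which is no member and was named after its values were seen, was lower (84.4 TPM and 78.04 TPM, log2 ratio -0.11). Gsta4, which conjugates the lipid aldehyde 4-hydroxynonenal, had 60.2 TPM and 58.1 TPM, and Gstt1 was listed at 0 in both libraries.

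In the thioredoxin system the cytosolic and mitochondrial arms differed. Txn1, the cytosolic thioredoxin, had 319 TPM in control cells and 426 TPM in co-cultured cells, a log2 ratio of 0.42. Its reductase Txnrd1 had 73.9 TPM and 81.2 TPM. In mitochondria, thioredoxin Txn2 had 122 TPM and 119 TPM. The mitochondrial reductase Txnrd2 (ENSMUSG00000075704, chromosome 16 from 18426384 to 18479073) had 63.4 TPM in control cells and 33.5 TPM in co-cultured cells. Its log2 ratio was -0.90, and it passed 2-fold with median ratio scaling (-1.01) and with the TMM factor (-1.09). The reductase transcripts were near parity in the control, with Txnrd1 over Txnrd2 at 1.17, and that quotient was 2.43 in co-culture.

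Txnip encodes an arrestin-like protein that binds and inhibits thioredoxin and limits glucose uptake. It had 0.93 TPM in control cells and 2.46 TPM in co-cultured cells, a log2 ratio of 0.84 that was 1.31 with a pseudocount of 0.1 and 0.33 with a pseudocount of 5. It was the least abundant detected member in both libraries. Of the other genes in the list of arrestin relatives and Mondo transcription factors, 6 of 8 were detected. Arrdc3, a related arrestin, alone passed 2-fold upward (2.76 TPM and 8.24 TPM, log2 ratio 1.30), and it fell short of 2-fold with a pseudocount of 5. Arrdc1, Mlxip and Slc2a1 had ratios of 0.42, -0.19 and 0.18, and none of the list was 2-fold lower, with a median of 0.16 (-0.01 with the TMM factor).

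The peroxiredoxins, abundant enzymes that reduce hydrogen peroxide through a reactive cysteine, showed small differences throughout. With sulfiredoxin, 3 of 7 had higher and 4 had lower values, none past 1.5-fold, and the median log2 ratio was -0.02. Prdx1, the main cytosolic form, had 436 TPM in control cells and 572 TPM in co-cultured cells, a log2 ratio of 0.39. Prdx2, also cytosolic, had 184 TPM and 197 TPM. Prdx2 shares exonic bases on the opposite strand with Junb (53.2 TPM and 81.6 TPM) and Rnaseh2a (97.5 TPM and 71.1 TPM). Prdx3 of the mitochondria had 113 TPM in control cells and 111 TPM in co-cultured cells. Prdx4 of the endoplasmic reticulum had 297 TPM and 255 TPM, and its ratio of -0.22 was opposite in sign to that of Gpx8 in the same organelle. Prdx5 had 162 TPM and 182 TPM, and Prdx6, which uses glutathione, had 283 TPM and 269 TPM. Prdx5 shares 409 exonic bases with Trmt112 on the opposite strand (88.2 TPM and 93.0 TPM). Srxn1, which repairs overoxidised peroxiredoxins and is a known NRF2 target, had 85.9 TPM in control cells and 66.5 TPM in co-cultured cells.

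The superoxide dismutases, catalase and NQO1 were nearly level. Sod1, the cytosolic copper-zinc enzyme, had 978 TPM in control cells and 860.0 TPM in co-cultured cells, a log2 ratio of -0.18. Sod2, the mitochondrial manganese enzyme, had 26.6 TPM and 27.3 TPM. Cat, the peroxisomal catalase, had 28.3 TPM and 33.0 TPM. Nqo1, a quinone reductase often used as a readout of NRF2, had 49.1 TPM in control cells and 45.5 TPM in co-cultured cells. All 4 lay within 1.5-fold, with log2 ratios from -0.18 to 0.22.

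The glutaredoxins, which reduce protein disulfides formed with glutathione, differed in opposite directions. Glrx, the cytosolic form (ENSMUSG00000021591, chromosome 13 from 75839868 to 75850154), had 36.1 TPM in control cells and 72.0 TPM in co-cultured cells. Its log2 ratio of 0.98 was the highest of the set with a pseudocount of 1 (with 0.1 that of Txnip was higher, 1.31) and lay between 0.79 and 0.996 in the other settings for pseudocount and scaling. Glrx2, found mainly in mitochondria, had 29.25 TPM in control cells and 22.6 TPM in co-cultured cells, a log2 ratio of -0.36. The quotient of Glrx over Glrx2 was 1.23 in the control and 3.19 in co-culture.

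Grouped by compartment, all 5 mitochondrial members (Txn2, Txnrd2, Prdx3, Sod2 and Glrx2) lay below the median of all detected genes. Their median log2 ratio was -0.03 (-0.22 with the TMM factor), and the ratios ranged from -0.90 for Txnrd2 to 0.04 for Sod2. The 29 detected members of the cytosol, the nucleus or several compartments had a median of 0.10 (-0.09 with the TMM factor). Of these, 10 lay above and 19 below the median of all detected genes. The microsomal enzymes Mgst1 and Mgst3 were counted in this group and not with the endoplasmic reticulum. The cytosolic over mitochondrial quotient was higher in co-culture for thioredoxin (2.61 and 3.57), thioredoxin reductase and glutaredoxin, but not for superoxide dismutase (36.8 and 31.5). The level of the cytosolic partner also differed, so these quotients do not isolate the mitochondrial gene.

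Summed over members, the transcript pool was slightly smaller in co-culture, with a quotient of 0.953 as deposited and 0.835 with the TMM factor. The 40 genes took 0.713% of all TPM in the control and 0.68% in co-culture, with sums of 7132 TPM and 6795 TPM. The glutathione peroxidases had the largest sum of any group, 2225 TPM in control cells and 1827 TPM in co-cultured cells, a quotient of 0.82. The peroxiredoxins with Srxn1 summed to 1561 TPM and 1652 TPM, a quotient of 1.06. The transferases summed to 1182 TPM and 1268 TPM, the thioredoxin group to 579 TPM and 662 TPM, and the glutaredoxins to 65.3 TPM and 94.6 TPM. The sums for glutathione synthesis were 158 TPM and 135 TPM. Those for the regulators were 280 TPM and 192 TPM, a quotient of 0.68. Nfe2l1 made up 68.6% of the regulator sum in the control and 44.5% in co-culture. The quinone, superoxide and peroxide enzymes summed to 1082 TPM and 966 TPM, a quotient of 0.89. The quotients of the transferases (1.07) and the peroxiredoxins turned below 1 with median ratio scaling (0.99 and 0.977) and with the TMM factor (0.94 and 0.928). That of the thioredoxin group was 1.14 as deposited, 1.06 with median ratio scaling and level with the TMM factor.

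**Figure D3:**
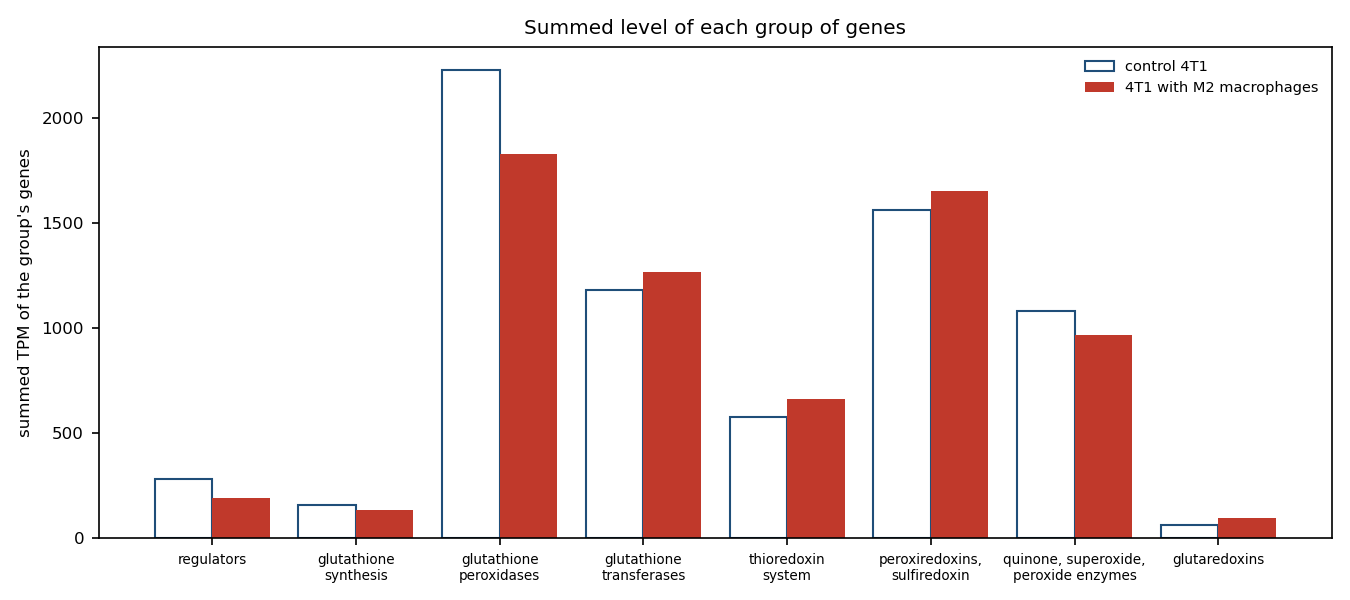
Summed TPM of each group of genes in the control library (open bars) and the co-culture library (filled bars), from 0. The peroxidase sum is 2225 TPM in control cells and 1827 TPM in co-cultured cells, and the peroxiredoxin, transferase and thioredoxin sums are slightly higher in co-culture as deposited; with the TMM factor the first pair are lower and the thioredoxin sum is level.

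The antioxidant response element was looked for in the promoters because it is the motif through which NRF2 acts. Its core TGACNNNGC was searched on both strands of RefSeq windows from 250 bases before to 50 bases after each gene start (GRCm38.p6). Of the 40 members 36 had a window, and Gclc, Gsr, Gsta4 and Prdx6 had none. The core was present in 9 of the 36, or 25%, and in 14% of the 27025 genes with a window. By window it was present in 17.6% of the members' 51 and in 12.4% of all 32851. The members' windows were also richer in CG dinucleotides, with a median of 16 per window against 7 in all windows. The part of this difference in the motif shares was not tested. A match is a description of letters and not evidence of binding. The 9 genes were Gclm, Ggct, Gstm5, Mgst1, Nfe2l2, Prdx1, Sod1, Srxn1 and Txnrd1. Windows of 6 of them are shown with the core in capitals, each on the strand that reads TGACNNNGC, because they lie on both sides of 0. The 6 include all 4 genes with higher values as deposited, while Ggct, Gstm5 and Sod1, which were lower, are not printed.
Gclm (chr3:122245409-122245445, minus strand): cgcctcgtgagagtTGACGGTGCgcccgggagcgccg
Srxn1 (chr2:152105538-152105573, minus strand): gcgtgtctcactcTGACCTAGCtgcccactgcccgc
Prdx1 (chr4:116685452-116685488, minus strand): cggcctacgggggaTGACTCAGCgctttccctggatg
Mgst1 (chr6:138140457-138140493, minus strand): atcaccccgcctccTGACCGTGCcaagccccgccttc
Txnrd1 (chr10:82859100-82859136, minus strand): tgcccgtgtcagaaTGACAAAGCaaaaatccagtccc
Nfe2l2 (chr2:75704881-75704913, minus strand): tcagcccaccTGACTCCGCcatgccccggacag

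Genes with the core fell on both sides of 0. Of the 9, all detected, 4 were higher and 5 lower beside macrophages, with a median log2 ratio of -0.18. With the TMM factor 2 were higher and 7 lower, with a median of -0.37. Mgst1 and Prdx1, at 0.53 and 0.39, were the highest, and Ggct and Srxn1, at -0.50 and -0.36, were the lowest. Of the 24 detected members with a window but no core 13 had higher values, with a median of 0.07, and with the TMM factor 8, with a median of -0.12.

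Genes around the set were compared in 12 related lists that hold 137 detected genes. At least 2-fold lower were 14 (10.2%, against 2.14% of all detected genes), and 2-fold higher were 3 (2.19%, against 4.95%). The lists were chosen with earlier results of these data known, so these shares describe the lists and are no evidence of enrichment. In the list of glutathione turnover and supply 13 of 20 genes were detected, 5 were at least 2-fold lower, none was 2-fold higher, and the median log2 ratio was -0.35. Chac1, which cleaves glutathione, had 122 TPM in control cells and 14.8 TPM in co-cultured cells, a log2 ratio of -2.97. Slc7a11 and Slc3a2, the subunits of the cystine importer, had 3.22 TPM and 354 TPM in the control and 0.77 TPM and 131 TPM in co-culture. Cth, which releases cysteine from cystathionine, had 143 TPM and 61.1 TPM, a log2 ratio of -1.21. Slc1a4, a carrier of neutral amino acids, had 44.3 TPM and 20.2 TPM. With a pseudocount of 5, 3 of these genes were 2-fold lower. As background, genes of this kind are also targets of ATF4, a factor of the amino acid stress response, whose part was not tested.

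Among 25 other NRF2 targets 22 were detected, 3 were at least 2-fold lower and none 2-fold higher, with a median log2 ratio of -0.12. With a pseudocount of 5 only 1 was 2-fold lower. The low genes were Hmox1 (haem oxygenase, 72.3 TPM and 20.2 TPM, -1.79), Slc7a11 and Osgin1 (18.6 TPM and 7.31 TPM, -1.23). Abcc4, an efflux pump, was highest at 0.62. In the list of genes that regulate NRF2 and NRF1, 17 of 20 were detected, 2 were 2-fold lower and none higher, with a median of 0.09 (-0.06 with the TMM factor). Sqstm1, the autophagy receptor that binds KEAP1, had 1494 TPM in control cells and 453 TPM in co-cultured cells, a log2 ratio of -1.72. Syvn1, a ubiquitin ligase of the endoplasmic reticulum, had 39.2 TPM and 15.1 TPM. Palb2 and Maff, a small MAF partner of NRF2, had ratios of 0.71 and 0.66.

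NADPH, the reducing power for both systems, comes from several enzymes, and their genes did not move as a block. Of 20 listed genes 19 were detected, with 1 at least 2-fold higher, 2 at least 2-fold lower and a median of 0.17, the same as that of all detected genes (-0.02 with the TMM factor). Idh1, the cytosolic isocitrate dehydrogenase, had 8.50 TPM in control cells and 19.9 TPM in co-cultured cells, a log2 ratio of 1.14 that was below 1 with a pseudocount of 5 and with the TMM factor. The mitochondrial folate enzymes Mthfd2 and Aldh1l2 were the low genes, with 152 TPM and 40.9 TPM for Mthfd2 and 4.97 TPM and 1.48 TPM for Aldh1l2. With a pseudocount of 5 only 1 of the list, Mthfd2, was 2-fold lower. G6pdx, the entry enzyme of the pentose phosphate pathway, had a ratio of 0.35, and H6pd, its counterpart in the endoplasmic reticulum, 0.80.

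Of 32 relatives of the members within the same families 17 were detected and none was 2-fold different, with a median of 0.10 (-0.08 with the TMM factor). The largest ratios were those of Gstt3 (0.42), Txnrd3 (-0.40), Gstk1 (0.36) and Gstcd (0.35). Among other selenoproteins 13 of 20 were detected, 1 was 2-fold lower and none higher, with a median of 0.16 (-0.02 with the TMM factor). That gene was Selenos, which acts in degradation at the endoplasmic reticulum, with 88.0 TPM in control cells and 41.9 TPM in co-cultured cells (-1.05; not 2-fold with a pseudocount of 5). Selenok, another selenoprotein of that membrane, had a ratio of -0.53, Selenow -0.56 and Selenoh 0.64. All 11 genes of selenocysteine synthesis were detected, with 1 at least 2-fold lower and a median of -0.03. This was Sars, which charges the selenocysteine tRNA with serine as well as the serine tRNAs (468 TPM and 178 TPM, -1.39). Sephs1, Secisbp2l and Sephs2 had ratios of 0.71, 0.53 and 0.27.

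**Figure D4:**
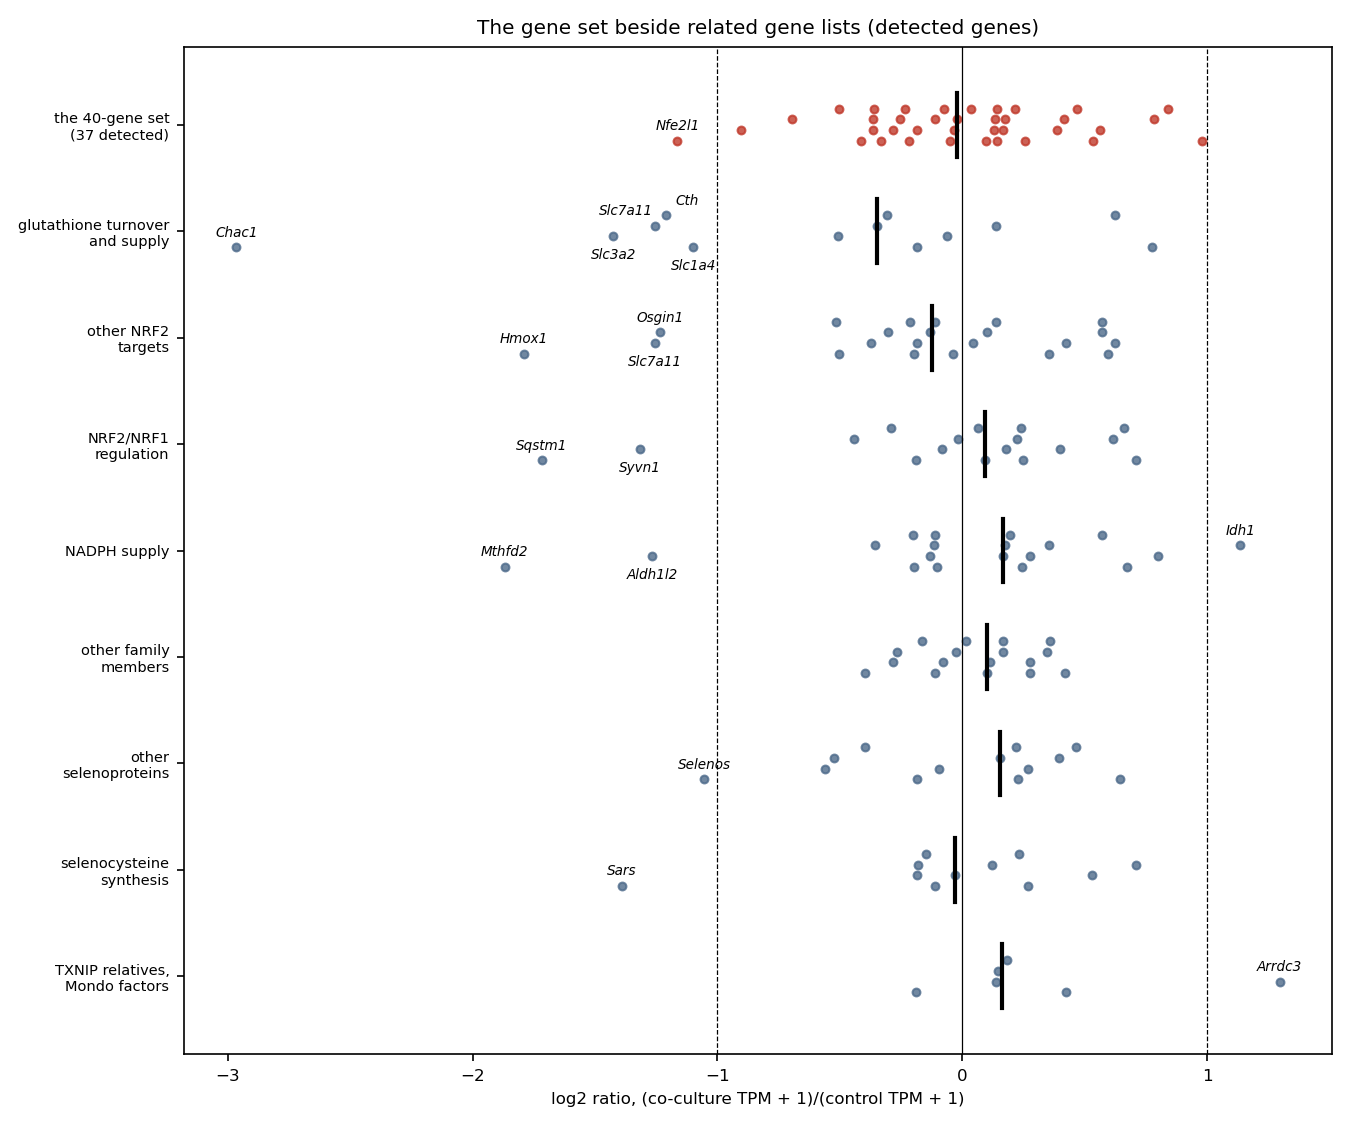
Log2 ratio of each detected gene in the set (top row) and in 8 related lists, 1 point per gene; thick bars are medians and dashed lines mark 2-fold. Labelled genes are at least 2-fold different: 1 in the set, 5 in glutathione turnover and supply, and none among other family members.

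Few macrophage markers were found in either library. Of 20 macrophage markers 2 were detected, Cd68 (57.7 TPM in control cells and 27.8 TPM in co-cultured cells) and Cd14 (8.87 TPM and 12.4 TPM), and the markers summed to 66.9 TPM and 40.7 TPM. Tyrobp, Fcer1g, Adgre1, Ptprc, Itgam and 5 others were listed at 0 in both. Of 10 fibroblast markers only Pdgfra was detected. Of 12 epithelial markers 7 were detected, and the markers summed to 1033 TPM and 1185 TPM. All 7 had higher values in co-culture, as had 64.5% of all detected genes. Krt8 and Krt18 were abundant, while Epcam and Krt5 were listed at 0 in both libraries, and Cdh1, Cldn4 and Krt14 were not detected. The part of these markers in the members' ratios was not tested.

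Shared sequence could affect few of the values. A coding sequence at least 95% identical over at least 100 bases exists elsewhere for 9 members, mostly as processed pseudogenes. Only the copies of Gpx4 and Txn1 were detected, Gpx4-ps2 at 5.05 TPM and 1.82 TPM and Txn-ps1 at 1.58 TPM and 2.66 TPM. Summing each gene with its copies moved no log2 ratio by more than 0.0245, a shift reached by Txnip with its antisense gene Gm15441 (0.11 TPM and 0.26 TPM). Gstp1 has a close paralog in Gstp2, which was listed at 0.21 TPM and 0.11 TPM.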

How the data were processed

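The authors deposited 1 table of TPM values with 1 column for each of 2 libraries, rounded to 2 decimals. Per the submitters' processing notes the tools were HISAT2 2.1.0 and RSEM 1.2.31 with the build GRCm38.p5, with no roles given. Neither annotation release nor strandedness or filters could be stated (not given in the sources used here). Rows with an Ensembl identifier were named from a GENCODE M21 table, which held 51633 of 51912; the 884 other rows were not used. Members and gene lists were chosen with earlier results of these data known. All 40 members are named; from each related list the text names up to 4 detected genes with the largest absolute ratio and any gene at least 2-fold different, and, after values were seen, also G6pdx, Mgst2 and the NADPH oxidase genes. Lists are described by counts and medians, with no test. Ero1a, Ero1b and Hrd1 were matched through RefSeq synonyms, and Hagl was not matched. Positions are from GENCODE M21 and promoters from RefSeq. Copies were found with BLAST 2.17.0; other steps used Python 3.11.15, pandas 2.3.3 and Biopython 1.88. Alternatives were pseudocounts of 0.1 and 5, no filter, a minimum mean of 10 TPM, 3 scalings, a 1.5-fold limit and the mean. The ratio and threshold steps were tested on simulated data. The level classes and the sums with copies were added after the data were seen. Some values are not reported here.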

Additional observations from a re-analysis of the deposited data

How the results depend on the processing

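No paired analysis was possible because each group has 1 library, and no library could be left out. A result without a test was taken to hold when a count stayed within 1.5 times and when a ratio or median stayed on its side of 2-fold. The number of members at least 2-fold higher, 0, was 1 with a pseudocount of 0.1 (Txnip) and 3 at 1.5-fold. The number at least 2-fold lower, 1, was 2 with median ratio scaling and 2 with the TMM factor (Txnrd2 joined Nfe2l1) and 3 at 1.5-fold. The number with a higher value, 18, was 10 with the TMM factor and 16 with median ratio scaling. The cause of each change is the construction of the setting. The median of the members was -0.02 and lay between -0.21 (TMM factor) and 0.00 (the mean in place of the median). The medians of 3 role groups (regulators, transferases and the thioredoxin system) were slightly positive and turned negative with the TMM factor, at -0.06, -0.03 and -0.05. Median ratio scaling shifts co-culture log2 values by -0.12, the TMM factor by -0.19, and rescaling without mitochondrial and the 20 most abundant genes by -0.01. Over all detected genes the 2-fold higher count ran from 199 (pseudocount of 5) to 886 (pseudocount of 0.1), with 244 at a mean of 10 TPM or more; the 2-fold lower count was 129, 325 and 120 there, and 155 among protein-coding genes. Depth is unknown, which limits every value near 1 TPM, above all Txnip.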

Other observations

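Most of the listed genes of oxidant production were not detected, and these were mainly NADPH oxidase genes. Of 18 listed sources 6 were detected. Pxdn, a matrix peroxidase, had 12.7 TPM in control cells and 47.4 TPM in co-cultured cells, a log2 ratio of 1.82, and was the only one at least 2-fold different. The oxidases that form disulfides in the endoplasmic reticulum differed in opposite directions: Ero1l (Ero1a) had 87.4 TPM and 159 TPM, and Ero1lb (Ero1b) had 10.7 TPM and 5.46 TPM. Xdh, xanthine dehydrogenase, had a ratio of -0.39. With the TMM factor 1 gene, Ero1lb, was also 2-fold lower. Named after their values were seen, the NADPH oxidase genes Cybb, Nox3, Nox4 and Duox2 were listed at 0 in both libraries, while Cyba had 122 TPM and 118 TPM.

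In the list of methionine sulfoxide reductases and sestrins 7 of 9 genes were detected and Sesn2, a stress-induced sestrin, was the only one at least 2-fold lower (12.7 TPM and 4.27 TPM, log2 ratio -1.38; not 2-fold with a pseudocount of 5). Msra, Msrb3 and Sesn1 had ratios of 0.54, 0.47 and 0.37. None of the 11 genes of aldehyde and glyoxal clearance was 2-fold different, with a median of -0.23. Cbr1 (0.60), Hagh (-0.56), Esd (-0.51) and Adh5 (-0.31) were the farthest from 0. Among genes of lipid peroxidation and its control 9 of 13 were detected and none was 2-fold different. Acsl4, which loads polyunsaturated fatty acids into membrane lipids, had 15 TPM in control cells and 28.7 TPM in co-cultured cells (0.89), Lpcat3 had a ratio of 0.55, Vkorc1l1 0.41, and Gch1 -0.57. Beside them Gpx4, which reduces peroxides of such lipids, had a ratio of -0.33.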
